A study of Mus musculus with 12 samples.

Results

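The miRNA genes whose precursors are reported as made without Drosha, here Mir1981, Mir877, Mir1224, Mir702, Mir320 and Mir484, were followed through small RNA libraries of mouse medulloblastoma cells. They were taken by gene symbol and make up 6 of the 1116 miRNA symbols in the deposited tables, where 270 symbols were counted at least once. All 6 had at least 1 count, and together they held 398 of 40812 miRNA counts (0.975%). The libraries came from stem-like medulloblastoma cells, a cerebellar tumour type, and 3 groups of 4 libraries were compared. All groups share the genotype Math1-Cre; SmoM2, in which an activated Smoothened, the transducer of Hedgehog signals, is switched on by Cre in the granule neuron lineage. Control libraries are labelled WT and carried the guide sgGal4-4, whose target is a yeast factor. Libraries labelled Miat knockdown carried sgMiat-6 (libraries 6-1 and 6-2) or sgMiat-96 (96-1 and 96-2), against a nuclear long non-coding RNA. Libraries labelled Mtdh knockdown carried sgMtdh-1 (1-1 and 1-2) or sgMtdh-2 (2-1 and 2-2), against the gene of metadherin, a protein that binds the nuclease SND1. Nothing in the labels says that libraries of a guide are separate cultures or clones, so a p-value here rests on the spread among the 12 libraries, and that spread may be technical.

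Most animal miRNAs are cut in succession: Drosha, in the nucleus, frees a hairpin from a long primary transcript, and Dicer, in the cytoplasm, trims the hairpin to the mature RNA. Mirtrons replace the Drosha step by splicing, since the whole hairpin is a short intron that is excised, debranched and passed to Dicer. Capped hairpins replace it by transcription, since RNA polymerase II makes a short RNA whose capped start is already the 5′ end of the hairpin. In these routes the mature RNA still enters Argonaute and pairs with targets through its seed, bases 2 to 8 from the 5′ end.

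The intron hairpins are shown first, because their ends are what defines them. They are RefSeq sequences of GRCm38.p6, written 5′ to 3′, with capitals on a GU at the start and an AG at the end, the bases that open and close a standard intron.

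Mir1981: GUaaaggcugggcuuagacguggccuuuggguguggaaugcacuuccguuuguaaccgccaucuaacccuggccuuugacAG
Mir877: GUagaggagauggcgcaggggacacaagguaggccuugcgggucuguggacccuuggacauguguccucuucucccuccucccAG
Mir1224: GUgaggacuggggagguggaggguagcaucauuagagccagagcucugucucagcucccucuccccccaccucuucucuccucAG
Mir702: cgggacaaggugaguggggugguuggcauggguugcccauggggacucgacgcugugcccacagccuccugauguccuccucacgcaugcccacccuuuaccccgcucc

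Mir1981, Mir877 and Mir1224 start with GU and end with AG, as did 30 of the 1005 hairpins in the RefSeq table (2.99%). Mir702 carries neither mark at its ends. The hairpin of Mir484, of the other route, has neither mark as well.

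Mir484: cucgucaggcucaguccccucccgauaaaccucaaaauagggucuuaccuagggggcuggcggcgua

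By position, 4 of the 6 genes lie at an intron's ends, Mir702 among them, and Mir320 and Mir484 do not. The 82 bases of Mir1981 (chr1:184822407-184822488, minus strand) are exactly an intron of Marc2, which encodes a mitochondrial reductase. The 85 bases of Mir877 (chr17:35960730-35960814, minus strand) are exactly an intron of Abcf1, which encodes an ATP-binding protein of translation initiation. The 85 bases of Mir1224 (chr16:20604452-20604536, plus strand) are exactly an intron of Vwa5b2. The annotated precursor of Mir702, 109 bases long (chr5:136991433-136991541, plus strand), begins 9 bases inside the exon before an intron of 102 bases of Plod3, a collagen-modifying enzyme. Its 5p mature RNA begins at base 136991442, which is the intron's start. All positions are in GRCm38.

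**Figure D1:**
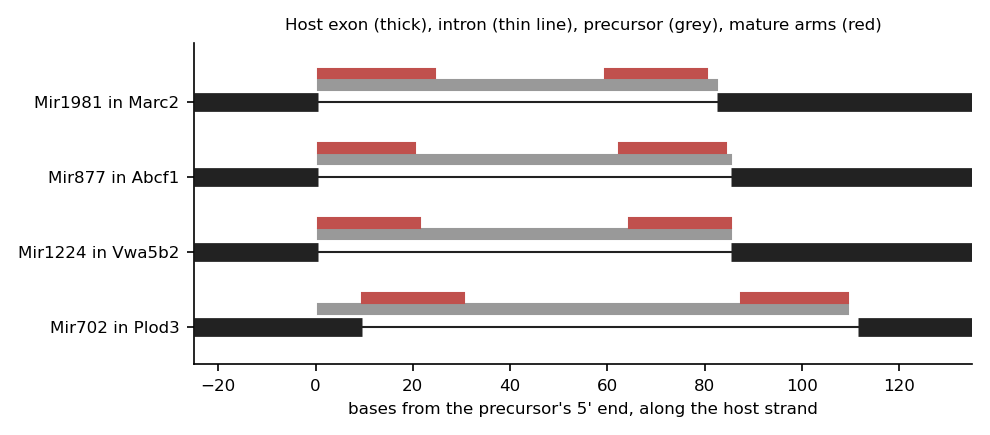
Position of the 4 intronic precursors against the annotated intron of their host gene, in bases from the precursor's 5′ end along the host strand (exons as thick bars, intron as a thin line, precursor in grey, mature arms in red). Mir1981, Mir877 and Mir1224 fill their introns end to end, and Mir702 starts 9 bases inside the exon.

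Mir320 and Mir484 lay in no intron of their own strand. Mir320 (chr14:70443510-70443591, plus strand, 82 bases) starts 63 bases from the start of Polr3d, a subunit gene of RNA polymerase III, on the other strand, and 13966 bases from the nearest start on its own strand, that of Phyhip. Mir484 (chr16:14159626-14159692, plus strand, 67 bases) overlaps Marf1 on the other strand and lies 3649 bases from the start of Nde1 on its own. Neither precursor was within 100 bases of an annotated transcript start on its own strand. Whether counting used strand is not given in the sources used here, so counts on Mir484 and fragments of Marf1 cannot be told apart.

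The mature RNAs of the 5 genes found among the RefSeq sequences used here are shown with the seed in capitals, since the seed sets which targets a miRNA pairs with. Mir320 was not among those sequences, so its hairpin, seed and base content are not given.

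miR-1981-5p: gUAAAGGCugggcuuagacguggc
miR-1981-3p: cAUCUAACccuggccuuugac
miR-877-5p: gUAGAGGAgauggcgcaggg
miR-877-3p: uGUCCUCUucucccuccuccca
miR-1224-5p: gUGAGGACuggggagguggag
miR-1224-3p: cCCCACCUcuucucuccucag
miR-702-5p: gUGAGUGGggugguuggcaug
miR-702-3p: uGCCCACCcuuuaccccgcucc
miR-484: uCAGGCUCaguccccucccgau

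No seed was shared between these genes. Among the 1679 mature names of the RefSeq table, the seed of miR-702-5p also occurs in miR-3102-5p, and none of the other seeds occurs again. In the intronic genes the 5p arm starts with the G and U of the splice donor, so its seed is in part the donor sequence. The counts are given per precursor and do not tell the 5p arm, the 3p arm and the rest of the hairpin or intron apart. The hairpins of Mir877, Mir702 and Mir1224 held 61.2%, 65.1% and 60.0% G and C, above the upper quartile (58.3%) of the 235 hairpins with counts. Mir484 held 58.2% and Mir1981 53.7%, against a median of 52.7%.

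Library depth was 23318 to 164537 counts in all (4529 transcripts) and 1015 to 7287 miRNA counts. The floor, 3 counts, is the one-sided 95% limit that a count of 0 allows. It stood for 0.412 to 2.96 counts per 1000 miRNA counts. Intervals and this floor cover counting error only. Rn45s, the ribosomal RNA precursor, took 53.0% to 55.4% of counts in control libraries, 70.3% to 82.7% in Miat libraries and 63.7% to 76.7% in Mtdh libraries. Mir30d took 51.0% to 57.0% of miRNA counts in control libraries, 15.4% to 22.8% in Miat libraries and 48.9% to 72.1% in Mtdh libraries. Miat itself was counted 0, 1, 1 and 1 times in control, 49 and 30 times with sgMiat-6, 1 and 0 times with sgMiat-96 and 0 to 2 times in Mtdh libraries, so the label Miat knockdown is used here only as a name. Of the neural marker list, the 3 Mir9 genes had between 100 and 104 counts each in control, 89 to 101 with Miat guides and 41 to 47 with Mtdh guides, while Mir128-1 and Mir128-2 had 4 and 4 in control, 0 and 6 with Miat guides and 8 and 6 with Mtdh guides, and Mir124a, Mir137 and Mir219a-2, of neurons and glia, were at 0. The list's summed level was 19.98 to 26.86 per 1000 miRNA counts in control, 10.2 to 36.5 with Miat guides and 2.96 to 11.7 with Mtdh guides. The 5 blood markers and the liver marker were at 0, the endothelial Mir126a had 0, 3 and 4 counts in the 3 groups, and 2 of the 7 mesenchyme and muscle markers had 1 count each, both in Mtdh libraries.

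Abundance differed widely among the 6. Ranked by counts among the 270 miRNAs with a count, Mir1981 was 22nd with 181 counts, Mir320 31st with 89, Mir484 47th with 55, Mir877 50th with 52, Mir1224 79th with 20 and Mir702 216th with 1. The 4 intronic genes held 254 of the 398 counts (63.8%), and Mir1981 alone held 45.5%. Per length, in the FPKM values the authors deposited, the control means were 2206 ± 1408 for Mir1981 (SD, n = 4), 1280 ± 1215 for Mir877, 1226 ± 1446 for Mir484, 1141 ± 602 for Mir320 and 480 ± 95.5 for Mir1224. In control Mir877, Mir484 and Mir320 were closer to each other than the spread of any of them, and Mir702 was listed at 0.

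Other intronic hairpins added little to this class. By the annotation, 27 of 1108 placed miRNA genes (2.44%) have both ends within 10 bases of the ends of 1 intron, and 8 of these had counts, 276 in all, of which the 4 genes described here held 254. Mir3062, in an intron of Pfas, followed with 9 counts and Mir7068, in an intron of Cherp, with 7. A further 221 genes have only 1 end within 10 bases of an intron end, and 31 of them shared 106 counts. Mir1981 was the only one of all these intronic genes with enough counts to be tested.

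Mir1981, the most abundant of the 6, was on average higher per miRNA count with guides against either target, but the libraries of the groups overlapped. As a share of all counts its mean was level with control, at 0.999 (Miat) and 1.09 (Mtdh) of the control mean, beside Rn45s shares that were higher in both. Controls 1 to 4 had 2, 8, 7 and 22 counts, and it was counted 23 and 7 times with sgMiat-6, 31 and 13 times with sgMiat-96, 7 and 25 times in the sgMtdh-1 libraries, and 32 and 4 times with sgMtdh-2. Scaled by TMM factors to counts per 1000000 counts of the tested miRNAs (CPM), control libraries were at 817, 2499, 2223 and 4680. The sgMiat-6 libraries were at 4663 and 1793 CPM and the sgMiat-96 libraries at 10090 and 6716. The sgMtdh-1 libraries were at 11290 and 4653 CPM and the sgMtdh-2 libraries at 8139 and 4734. Control 4 lay above Miat 6-1, Miat 6-2 and Mtdh 1-2, so no group was separate from control.

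Against control the fold change of Mir1981 was 2.09 for Miat libraries, a log2 difference of 1.07 with SE 0.54 (adjusted p = 0.164, edgeR's quasi-likelihood test, Benjamini-Hochberg over 29 miRNAs). For Mtdh libraries it was 2.50-fold, a log2 difference of 1.32 with SE 0.56 (edgeR adjusted p = 0.0958, unadjusted 0.0330). Neither passed the threshold of 0.05. Mtdh and Miat libraries differed by 0.26 on the log2 scale with SE 0.54 (edgeR adjusted p = 0.740). With library totals in place of TMM factors this last difference was -0.61, while the median of all 29 moved to -0.96. A library total is here the summed count of the tested miRNAs in a library, not all its counts. Without Miat 6-2 the difference between Mtdh and Miat libraries was -0.03.

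Across all 29 tested miRNAs, 7 (24.1%) passed for Miat against control, 4 higher (13.8%) and 3 lower (10.3%). For Mtdh against control 7 (24.1%) passed, 5 higher (17.2%) and 2 lower (6.90%), and for Mtdh against Miat 2 (6.90%), 1 in each direction (3.45%). Mir1981 was among none of these calls, and at an unadjusted p under 0.05 it was among the 10 of Mtdh against control and not among the 9 and 5 of the other comparisons. DESeq2 and limma-voom did not call it in the 3 comparisons of groups. The median log2 difference of the 29 was -0.08, -0.15 and -0.08 in the 3 comparisons, so Mir1981 lay 1.15, 1.47 and 0.34 above it. In 8, 7 and 1 of the 29 the groups did not overlap, and Mir1981 was not among them. The 2 comparisons with control share the control libraries.

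Scaling applies 1 factor per library, so it moves the log2 differences of all miRNAs nearly alike. The distance of Mir1981 from their median was thus nearly fixed in advance and is no check on the result. The median of the 29 moved to 0.25 (Miat against control) and -0.59 (Mtdh against control) under library totals, to -0.60 and -0.38 with totals that leave out Mir30d, and to -0.13 and -0.39 with upper-quartile factors. Over these scalings, TMM and DESeq2 size factors, Mir1981 lay 1.05 to 1.15 above the median for Miat, 1.31 to 1.47 for Mtdh, and 0.34 to 0.43 for Mtdh against Miat libraries. The split of calls moved with the scaling. For Miat against control 4 were higher and 3 lower with TMM, 7 and 2 with library totals, and 4 and 6 without Mir30d. For Mtdh against control 5 were higher and 2 lower with TMM, 3 and 2 under DESeq2's size factors, 3 and 3 with upper-quartile factors, 1 and 4 with library totals, and 2 and 3 without Mir30d. For Mtdh against Miat 1 was higher and 14 lower with library totals, where 1 and 1 were called with TMM.

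**Figure D2:**
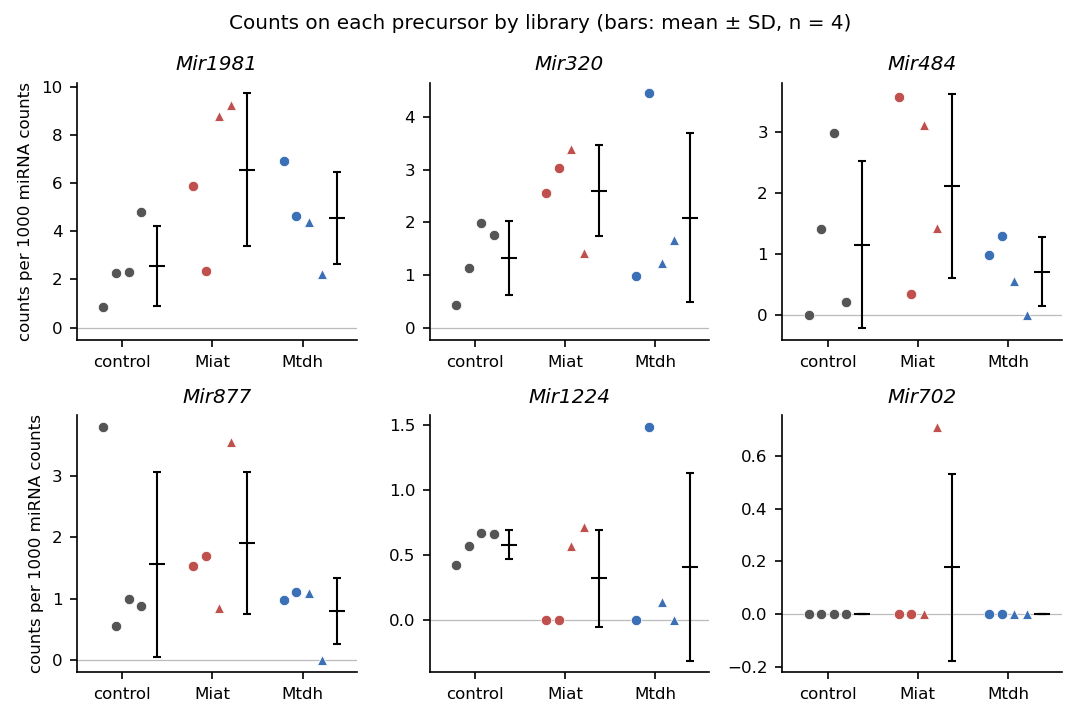
Counts on each precursor per 1000 miRNA counts, by library, on linear axes that differ between genes. Circles are the libraries of the first guide of a group (sgGal4-4, sgMiat-6, sgMtdh-1), triangles those of the second (sgMiat-96, sgMtdh-2), and bars give the mean ± SD of 4 libraries. The control points of every gene overlap those of Miat and of Mtdh.

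By guide, Mir1981 passed the threshold with sgMiat-96 and with none of the other 3. With sgMiat-96 it was 3.09-fold higher than in control, a log2 difference of 1.63 with SE 0.55 (edgeR adjusted p = 0.0356). In that comparison 8 of the 29 tested miRNAs (27.6%) passed. Both libraries, at 10090 and 6716 CPM, lay above all 4 controls. How many of the 29 lay outside the control range with this guide was not counted. With sgMiat-6 the log2 difference was 0.27 with SE 0.58 (edgeR adjusted p = 0.851), and both libraries, at 4663 and 1793 CPM, lay within the control range. The guides themselves differed by 1.36 with SE 0.63, which did not pass (edgeR adjusted p = 0.170, unadjusted 0.0468). The difference for Miat libraries as a group rested on sgMiat-96: without that guide it was -0.06.

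For Mtdh the estimates of the guides were close. The log2 difference of Mir1981 from control was 1.20 with SE 0.62 for sgMtdh-1 (edgeR adjusted p = 0.171) and 1.35 with SE 0.59 for sgMtdh-2 (edgeR adjusted p = 0.108). The difference between them was 0.15 with SE 0.69 (edgeR adjusted p = 0.893), which does not show that they act alike. In these fits 24.1% of the 29 miRNAs passed for sgMiat-6, 27.6% for sgMiat-96, 17.2% for each Mtdh guide, 6.90% between the Miat guides and 0% between the Mtdh guides. Between the Mtdh guides edgeR, DESeq2 and limma-voom each called 0 of the 29, and 5, 3 and 6 had an unadjusted p under 0.05.

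The call for sgMiat-96 was lost without some single libraries. With the tested set held at the same 29 miRNAs, an alternative added after seeing the data, the edgeR adjusted p was 0.0823 without control 1, 0.0801 without control 2, 0.127 without control 3, 0.283 without Miat 96-1 and 0.0725 without Miat 96-2. It was 0.0162 to 0.0343 without each of the other 7 libraries. Where the filter was run again, 31 to 42 miRNAs were tested. The edgeR adjusted p was then 0.217 without control 1, 0.0627 without control 2, 0.217 without control 3, 0.0620 without Miat 6-2, 0.311 without Miat 96-1, 0.158 without Miat 96-2, 0.0784 without Mtdh 1-1 and 0.111 without Mtdh 2-2. It stayed under 0.05 without control 4, Miat 6-1, Mtdh 1-2 or Mtdh 2-1 (0.0222 to 0.0454). The log2 difference was 1.27 to 2.06 with the same 29 miRNAs and 1.15 to 2.02 with the filter run again. With library totals that leave out Mir30d it was 0.88 (edgeR adjusted p = 0.189). Miat 96-2 had the highest Rn45s share of all libraries, 82.7%, and Miat 96-1 the lowest Mir30d share, 15.4%; their part in the result was not tested.

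**Figure D3:**
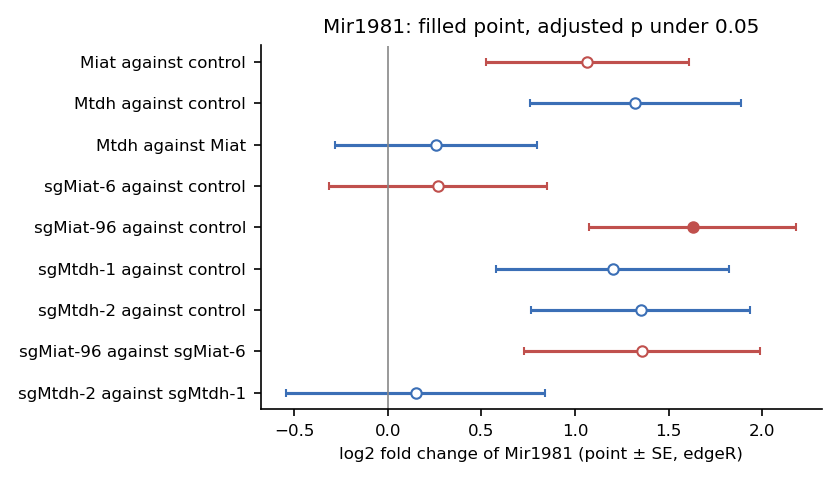
Log2 difference of Mir1981 in 9 comparisons, as points with the SE of edgeR's fit. The filled point, sgMiat-96 against control at 1.63, passed the adjusted threshold of 0.05, and the 8 open points did not.

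By a rule on likeness, the tested miRNAs whose log2 CPM followed Mir1981 most closely over the 12 libraries were Mir93 (Pearson r = 0.642), Mir677 (0.561) and Mir1843b (0.507), of 28 compared. These points share library and depth. Mir93 was 5.80-fold higher with Mtdh guides (edgeR adjusted p = 0.0283) and 3.73-fold higher with Miat guides (0.0632). Mir677 was 3.31-fold and 4.13-fold higher (edgeR adjusted p = 0.000425 and 5.24e-05).

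Mir877, the second intronic gene, was counted 9, 2, 3 and 4 times in control, 6 and 5 times with sgMiat-6, 3 and 5 times with sgMiat-96, 1 and 6 times in the sgMtdh-1 libraries, and 8 and 0 times with sgMtdh-2. Summed over libraries this was 1.33 per 1000 miRNA counts in control (95% exact Poisson interval 0.790 to 2.11), 1.61 with Miat guides (0.968 to 2.51) and 0.969 with Mtdh guides (0.542 to 1.60). Its groups overlapped and the intervals did too. Control 1 alone gave 9 of the 18 control counts, and without it the ratio of mean levels was 2.35 for Miat against control in place of 1.22, and 0.985 for Mtdh in place of 0.513. Under the other denominators the ratio for Miat libraries was below 1, at 0.759 outside Rn45s, 0.398 of all counts and 0.741 without Mir30d. Fitted with lower minimum counts, over 54 miRNAs, the log2 difference was -0.02 with SE 0.83 for Miat libraries (edgeR adjusted p = 0.991) and -0.06 with SE 0.92 for Mtdh libraries (0.983).

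Mir1224 stood near the limit of detection. It had 1, 2, 2 and 3 counts in control, 0 and 0 in the sgMiat-6 libraries, 2 and 1 with sgMiat-96, 0 and 8 in the sgMtdh-1 libraries, and 1 and 0 with sgMtdh-2. Control libraries were close together, at 0.422 to 0.663 per 1000 miRNA counts. No count fell in the 6881 miRNA counts of sgMiat-6, where the one-sided floor of 3 counts stood for 0.436 per 1000. The 95% exact Poisson interval there reached 0.536, against a rate of 0.592 in control (interval 0.256 to 1.17). Over all 4 Miat libraries the rate was 0.254 (0.0523 to 0.742) and over the Mtdh libraries 0.581 (0.266 to 1.10). Of the 9 Mtdh counts 8 came from 1 library, Mtdh 1-2. Overlap of these intervals with that of the control is not a test, and they leave out the spread between libraries. With no filter, over 270 miRNAs, the log2 difference was -1.28 with SE 1.60 for Miat libraries (edgeR adjusted p = 0.690). For Mtdh libraries it was -0.02 with SE 2.7, and neither passed the threshold. As a share of all counts the 4 Miat libraries, at 0 to 0.0239 per 1000, lay below the controls, at 0.0292 to 0.0468. That rests on 3 counts against 8, and under the other denominators the groups overlapped. How many other miRNAs separate as a share of all counts was not counted. Rn45s took a higher share of the Miat libraries, and its part in this was not tested.

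Mir702 was detected by a single count, in Miat 96-2, among 40812 miRNA counts. The summed rate was 0.0846 per 1000 with Miat guides (95% exact Poisson interval 0.00214 to 0.471). For the counts of 0 in control and Mtdh libraries the same kind of interval reached 0.273 and 0.238. The one-sided floor of 3 counts stood for 0.222 and 0.194. No comparison of groups can be made for it.

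Mir320, a capped hairpin, was counted 1, 4, 6 and 8 times in control, 10 and 9 times with sgMiat-6, 12 and 2 times with sgMiat-96, 1 and 24 times in the sgMtdh-1 libraries, and 9 and 3 times with sgMtdh-2. The summed rate per 1000 miRNA counts was 1.41 in control (95% exact Poisson interval 0.847 to 2.20), 2.79 with Miat guides (1.92 to 3.92) and 2.39 with Mtdh guides (1.68 to 3.29). Of the Miat libraries 3 lay above the highest control (1.99), and Miat 96-2, at 1.42, lay within the control range. Of the Mtdh libraries only Mtdh 1-2, at 4.45, lay above the controls, and it held 24 of the 37 counts. By guide the rate was 3.90 with sgMtdh-1 (2.53 to 5.76) and 1.32 with sgMtdh-2 (0.683 to 2.31). In the fit over 54 miRNAs the log2 difference was 0.75 with SE 0.69 for Miat libraries (edgeR adjusted p = 0.625) and 1.22 with SE 0.70 for Mtdh libraries (0.314), so neither passed. As a share of all counts the mean was lower with Miat guides, at 0.808 of the control mean.

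Mir484, the other capped hairpin, was counted 0, 5, 9 and 1 times in control, 14 and 1 times with sgMiat-6, 11 and 2 times with sgMiat-96, 1 and 7 times in the sgMtdh-1 libraries, and 4 and 0 times with sgMtdh-2. The summed rate per 1000 miRNA counts was 1.11 in control (95% exact Poisson interval 0.622 to 1.83), 2.37 with Miat guides (1.57 to 3.42) and 0.775 with Mtdh guides (0.401 to 1.35). Each guide of Miat had a high and a low library, so libraries within a guide were farther apart than the group means. The Miat and Mtdh intervals do not overlap, while their libraries do, and the direct log2 difference with no filter was -0.87 with SE 1.03 (edgeR adjusted p = 0.623). Control 3 gave 9 of the 15 control counts, and without it the ratio of mean levels to control was 3.90 for Miat and 1.31 for Mtdh libraries, in place of 1.83 and 0.615. The ratio for Miat libraries was 1.29 outside Rn45s, 1.07 without Mir30d and 0.757 of all counts, so its direction turned with the denominator. With no filter, over 270 miRNAs, the log2 difference was 0.49 with SE 1.00 for Miat libraries (edgeR adjusted p = 0.873) and -0.38 with SE 1.06 for Mtdh libraries (1.00).

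The spread among libraries of a group can hold more than counting error, and whether the rest is technical cannot be told here. The variance over libraries was 2.16 times the counting variance for Mir320, 3.16 times for Mir484, 2.22 times for Mir877, 1.79 times for Mir1224 and 2.93 times for Mir1981. The 62 other miRNAs with 20 to 200 counts had a median of 3.13 (quartiles 2.17 to 4.63). All 5 values lay below that upper quartile, and those of Mir320 and Mir1224 below the lower one. The exact intervals above leave this spread out.

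Summed over the 6 genes, the level was 7.17 ± 1.72 per 1000 miRNA counts in control (SD, n = 4), 13.7 ± 4.46 with Miat guides and 8.54 ± 3.84 with Mtdh guides. Of the Miat libraries 3, at 13.5, 16.7 and 17.1, lay above the highest control (8.95), and Miat 6-2, at 7.43, lay among the controls. Mtdh libraries ranged from 3.904 to 12.99 and so lay on both sides. The ratio of means to control was 1.91 for Miat and 1.19 for Mtdh libraries. The latter was 0.789 without sgMtdh-1, 1.59 without sgMtdh-2 and 0.985 without Mtdh 1-2. Without Mir1981 the ratios were 1.54 and 0.868.

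The direction of the sum depended on what it was divided by. As a share of miRNA counts without Mir30d the ratio to control was 1.12 for Miat and 1.49 for Mtdh libraries. Divided by the counts left after removing Rn45s it was 1.30 and 1.17. As a share of all counts the means were below control, at 0.738 and 0.714 of it. Under each of these denominators the groups overlapped. Rn45s and Mir30d, whose shares are given above, move with the groups and are large parts of these denominators. Other miRNAs in them were also called, in both directions. Among these Mir677 was at 18150 ± 3674 CPM in control (SD), 75010 ± 13720 with Miat guides and 60960 ± 19560 with Mtdh guides. Leaving out Mir30d therefore does not leave a steady denominator. The part of Rn45s, Mir30d and these miRNAs in the result was not tested. In such bulk libraries fewer cells of a type and less RNA per cell cannot be told apart.

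**Figure D4:**
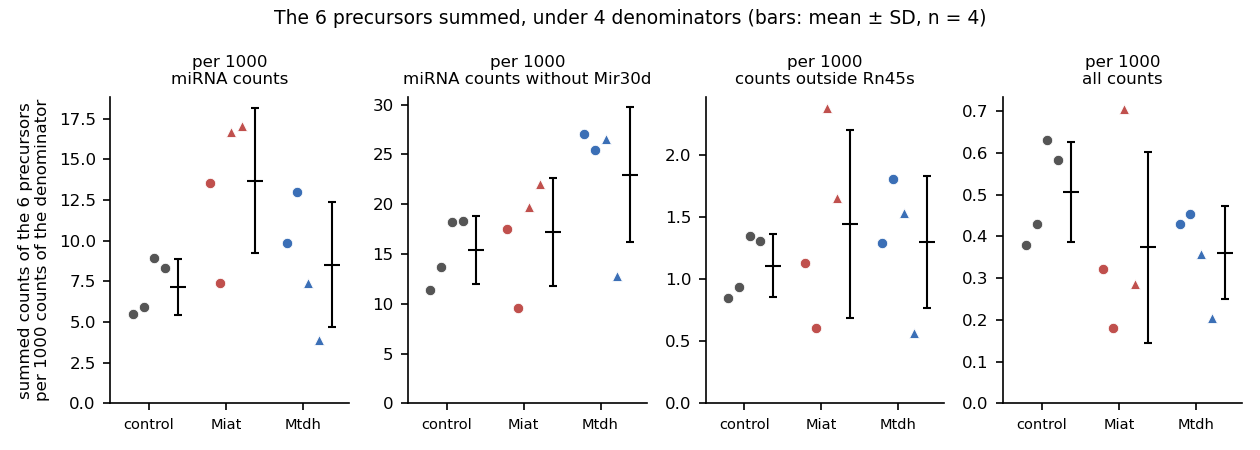
Counts of the 6 genes summed, per 1000 counts of 4 denominators, by library (circles, first guide of a group; triangles, second guide; bars, mean ± SD of 4 libraries). The Miat mean is above the control mean in the first 3 panels and below it in the last, and the groups overlap in all 4.

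Mir1981 was the largest part of the sum in all 3 groups. It held 39.4% of the 99 control counts, 46.8% of the 158 Miat counts and 48.2% of the 141 Mtdh counts. Mir320 held 19.2%, 20.9% and 26.2%, and Mir484 15.2%, 17.7% and 8.51%. Mir877 held 18.18%, 12.03% and 10.64% and Mir1224 8.08%, 1.90% and 6.38%. These shares were not tested, since libraries of 1 group differ widely.

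Precursors of the Drosha route gave no single direction against which to set the 6. A reference list of Drosha-dependent genes (the let-7, Mir9, Mir181, Mir30, Mir17 to Mir92, Mir25 to Mir106 and Mir124 families) had 49 symbols in the tables, 39 with counts and 18 tested. For Miat libraries 2 rose and 3 fell, for Mtdh libraries 2 rose and 2 fell, beside 24.1% of all 29 called in each, and between Mtdh and Miat libraries 1 was higher and 1 lower. Their median log2 difference was -0.21, -0.32 and -0.13, beside -0.08, -0.15 and -0.08 for all 29. Of 5 listed genes at small nucleolar RNA loci that are reported to bypass Drosha, holding 262 counts, only Mir3535 was tested. It rose with Mtdh guides (log2 difference 1.60, edgeR adjusted p = 0.0426) and had 1.09 with Miat guides (0.149). That list was not drawn by position. Mir677 and Mir1843b, named above and tested, overlap annotated exons of a small nucleolar RNA and a small Cajal body RNA. Mir1843b was at 0.51 with Miat guides and -0.15 with Mtdh guides, and neither was called. Mir451a and Mir451b, whose hairpin is cut by Argonaute in place of Dicer, were at 0 in all libraries.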

How the data were processed

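The members and lists were chosen with earlier results of these data known. Per the file headers, the authors deposited a raw count, an FPKM and a TPM value for each non-coding RefSeq transcript. FPKM is printed only as a level per length, and TPM was not used. STAR, GRCm38 and mm10 are named in the submitters' processing notes. Which counter, trimming, strand setting and handling of multi-mapped reads were used was not given in the sources used here.

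Precursors with the same symbol were summed. Tests on miRNAs used edgeR 4.0.16 (R 4.3.3). The filter was filterByExpr by group with a minimum count of 10 and a minimum total of 15. TMM factors ran from 0.523 to 1.62, and the quasi-likelihood model took all 12 libraries with 1 term per group, or 1 per guide. The common dispersion was 0.139. Only Mir1981 of the 6 genes passed the filter, among 29 miRNAs with 85.0% to 94.4% of a library's miRNA counts. Benjamini-Hochberg adjustment was applied within each comparison at 0.05, two-sided. The other genes are given as counts and as rates with 95% exact Poisson intervals (scipy 1.17.1). The sum was not tested.

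The genes named were, by rule, the 6 members, the 3 tested miRNAs most like Mir1981, Mir30d, Rn45s and Miat. Mir3062, Mir7068, Mir3535, Mir9 and the other markers were named as members of lists. Intron and start positions came from GENCODE M21, sequences from RefSeq GRCm38.p6. Alternatives were other scaling factors, filters and features, DESeq2 1.42.0, limma-voom (limma 3.58.1), fits of only 2 groups, a replicate block, and each library or guide left out. Other denominators were applied to shares. Library totals, as a scaling, were the summed counts of the tested miRNAs. Library totals without Mir30d were all miRNA counts less those of Mir30d. Leaving out 3 shallow libraries, guides for the sum, and each library with the 29 miRNAs held fixed, was added after seeing the data. The edgeR steps were tested on simulated data.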

Additional observations from a re-analysis of the deposited data

Results flagged for a closer look

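In 4 of 19 groups of 4 libraries checked, those of the sum included, a single library stood apart from the other 3 by Dixon's criterion. Normally distributed values meet it by chance in about 1 group in 20. These are rates from small counts, many at 0, so that rate does not apply and no excess can be read from the 4. Mir877 in control 1 was at 3.80 per 1000 miRNA counts, from 9 counts, while the other controls reached 0.995 at most. Mir877 in Mtdh 2-2 was at 0, where the other Mtdh libraries were at 0.985 to 1.11. This library held 1793 miRNA counts, so the one-sided floor of 3 counts stood for 1.67 per 1000, above those values. Mir1224 in Mtdh 1-2 was at 1.49, from 8 counts, where the other Mtdh libraries had 0, 1 and 0 counts. Mir702 in Miat 96-2 was at 0.711, which is its only count in the study; a single count among libraries at 0 meets the criterion by construction.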

How the results depend on the processing

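Mir1981 kept the direction of its difference from control, and stayed short of the threshold, in all 29 alternative fits for Mtdh libraries (0.72 to 1.85 on the log2 scale). For Miat libraries it did so in 28 of 29, the exception being -0.061 without sgMiat-96. No fit was scaled by all counts alone or by counts outside Rn45s. As a share of all counts its mean was 0.999 (Miat) and 1.09 (Mtdh) of the control mean. Outside Rn45s these ratios were 1.775 and 1.747. Mtdh against Miat turned to -0.61 with library totals and -0.26 without sgMiat-6. Leaving out each library gave -0.033 to 0.74 there, 0.47 to 1.45 for Miat against control and 1.02 to 1.77 for Mtdh against control. For sgMiat-6 against control it turned to -0.12 with library totals without Mir30d and -0.085 with all RNA classes together, and leaving out each library gave -0.67 to 0.64. For sgMtdh-2 against sgMtdh-1 it turned to -0.57 with library totals and 0.00 (-0.0020) with no filter, and leaving out each library gave -0.57 to 0.76.

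The sgMiat-96 call was kept in 9 of 22 alternatives with the filter as run and in 7 of 12 that held the 29 miRNAs fixed, and besides the libraries named in the report it was lost with library totals without Mir30d, no filter (log2 difference 1.40, edgeR adjusted p = 0.954 over 270 miRNAs), lower minimum counts (1.69, 0.121 over 54), all RNA classes (1.31, 0.194) and the replicate block (0.0972). Same-numbered libraries correlated at -0.35 to 0.26 (median 0.04), so the numbers were not taken to pair them. Numbers 3 and 4 occur only in control, so the replicate block fits controls 3 and 4 exactly. Under it, comparisons with control rest on controls 1 and 2 alone, and lost calls also reflect that. With the replicate block the calls were 3, 1 and 1 for Miat against control, Mtdh against control and Mtdh against Miat, in place of 7, 7 and 2, and Mir1981 was at 1.56, 1.85 and 0.29 (edgeR adjusted p = 0.217, 0.180 and 0.743), at 2.14 for sgMiat-96, and at -0.13 for sgMtdh-2 against sgMtdh-1.

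Calls over all miRNAs for Mtdh against control were 0 with no filter (270 miRNAs tested by edgeR, 17 at an unadjusted p under 0.05), 1 with lower minimum counts, 3 with all RNA classes, 4 without sgMiat-6 or sgMtdh-1, 3 without sgMtdh-2, and 2 without the 3 libraries under 2000 miRNA counts. For Mtdh against Miat they were 15 with library totals, 4 without sgMtdh-1, and 1 with DESeq2 size factors, library totals without Mir30d, the DESeq2 test, limma-voom, all RNA classes, only the 2 groups compared, sgMiat-6 or sgMtdh-2 left out, or the 3 shallow libraries left out. For Miat against control they were 4 without sgMiat-6. Each fit with a library or guide left out had its filter run again. Leaving out each library gave 6 to 12 calls for Miat against control, 2 to 8 for Mtdh against control and 1 to 4 for Mtdh against Miat. The cause was not tested. The sum over the 6 genes for Miat against control was 0.738 per all counts and 1.12 without Mir30d.

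Depth is a limit: 5 of the 6 genes had under 100 counts over 12 libraries, and the smallest library held 1015 miRNA counts. In the comparisons of groups, no other member passed the threshold in any alternative that tested it. For single guides only Mir1981 was followed through the alternatives.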
